A study of Homo sapiens with 4 samples.

Results

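The NDRG (N-myc downstream regulated gene) family was followed in A549 cells on 4 arrays, as the 4 genes NDRG1, NDRG2, NDRG3 and NDRG4. A probe was taken for a member where its gene name on the array was the member's symbol or where its accession was a RefSeq transcript of the member. This gave 6 probes of 50238 on the array, and 4 genes of 30988 gene names. NDRG1 and NDRG2 had 2 probes each, and NDRG3 and NDRG4 had 1 probe each. The family was selected on its signal in embelin treated cells against control cells in these same arrays, so that the differences given for its members are a description and carry no test.

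A549 is a lung adenocarcinoma cell line with epithelial features, and embelin is a benzoquinone from the fruits of Embelia ribes. The control group held 2 samples of untreated A549 cells, and the embelin group held 2 samples of A549 cells exposed to 15 µM embelin for 4 h. Cells of both groups had been moved to medium with less serum before the treatment. The study looked at this early time for pathways that accompany the onset of apoptosis, and the labels do not say whether the samples of a group were separate cultures, so that every p-value below measures the spread between these samples, which may be technical.

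The NDRG proteins share an alpha/beta hydrolase fold, but are not known to act as hydrolases. NDRG1 is the best studied member and a classical stress gene. Its transcript rises in hypoxia, on iron chelation and under several other stresses, and is repressed by MYC and MYCN, from which the family takes its name. The NDRG1 protein is phosphorylated by SGK1 and then by GSK3, which makes its phosphorylation a common readout of mTORC2 signalling, and it takes part in E-cadherin recycling and in restraint of metastasis in several carcinomas. NDRG2 is often lowered in tumours, NDRG3 is an oxygen- and lactate-regulated protein in hypoxia, and NDRG4 is best known from heart and brain.

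The members of a family can resemble each other in sequence, so the letters of their probes were compared first. Each of the 6 probes was 60 bases long. Shown here is a stretch of 30 bases of each NDRG2, NDRG3 and NDRG4 probe, 5′ to 3′ as on the array, with capitals marking its longest run of bases shared on the same strand with a probe of another member.
NDRG2 brighter probe, bases 1 to 30: cgTTTGGCTgcactaactttggtagctcag
NDRG2 other probe, bases 25 to 54: gaaattctgagTTGATACAaaagtacagaa
NDRG3 probe, bases 31 to 60: tggaagccaaattaaaTTGATACAgaaccc
NDRG4 probe, bases 26 to 55: ggaggttgtctCTTTGGTcaaggtgaactt

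The longest such run was 8 of 60 bases, between the NDRG2 other probe and the NDRG3 probe. Between all other probes of different members it was 7 bases, those of NDRG1 included, whose letters are not shown. On opposite strands the longest shared run was 9 bases. No probe thus held a long stretch of the probe of another member, while likeness to transcripts outside the probe set was not examined. The G and C content was 45.0% and 50% in the brighter and the other NDRG1 probe, 55.0% and 36.7% in those of NDRG2, 35% in the NDRG3 probe and 45.0% in the NDRG4 probe, against a median of 41.7% over all probes.

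The values below are log2 of the array intensity after each array was scaled to the same 75th percentile, called the normalized log2 signal. Each probe has its own binding strength, so its signal is compared between arrays and not with that of another probe. NDRG1 stood far above its control level in embelin treated cells at both of its probes, while the brighter NDRG2 probe was lower and the groups overlapped at NDRG3 and NDRG4. All values are from 2 arrays per group, for which an exact two-sided permutation test cannot go below a p of 0.333.

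At the brighter NDRG1 probe, control cells read 12.57 and 12.77 in normalized log2 signal, and embelin treated cells read 17.42 and 17.30. The group means were 12.67 ± 0.148 (SD, n = 2) and 17.36 ± 0.089 (SD, n = 2), a difference of 4.69 or 25.8-fold. Both embelin arrays were far above both control arrays, and the smallest difference between any embelin and any control array was 4.52. On the linear scale, the scaled intensities behind these values were 6062 and 7005 in control cells and 175691 and 161029 in embelin treated cells. No spot on any array was flagged as saturated by the scanner software. The probe was well above background on all 4 arrays, so that NDRG1 transcript was measurable in untreated A549 cells too.

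The other NDRG1 probe was dim in control cells, at 4.52 and 4.71 and the scanner software marked it as well above background in 1 of these 2 samples. In embelin treated cells it read 9.21 and 10.04. The means were 4.61 ± 0.139 (SD, n = 2) and 9.62 ± 0.581 (SD, n = 2), a difference of 5.01 or 32.2-fold. The groups were again well apart, by 4.50 at the closest, with the embelin arrays more widely spread at this probe than at the brighter one. This difference came to 3.18 with another background correction (normexp), whereas the brighter probe then gave 4.65. The 2 probes share a gene and the same RNA, and are not replicates of the treatment.

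Ranked by its difference from the highest down, the brighter NDRG1 probe was 19th of the 25631 probes that had a value on every array and that the scanner software marked well above background in both samples of either group. Of the 26145 probes tested, which include those with a value left out as an outlier, 6.78% were at least 2-fold higher in embelin treated cells and 5.51% at least 2-fold lower. Both arrays of embelin treated cells lay above both control arrays for 21.4% of the 25631 probes, and below both for 28.3%. Nothing is read from these shares for NDRG1, since its value in this comparison led to its choice.

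**Figure D1:**
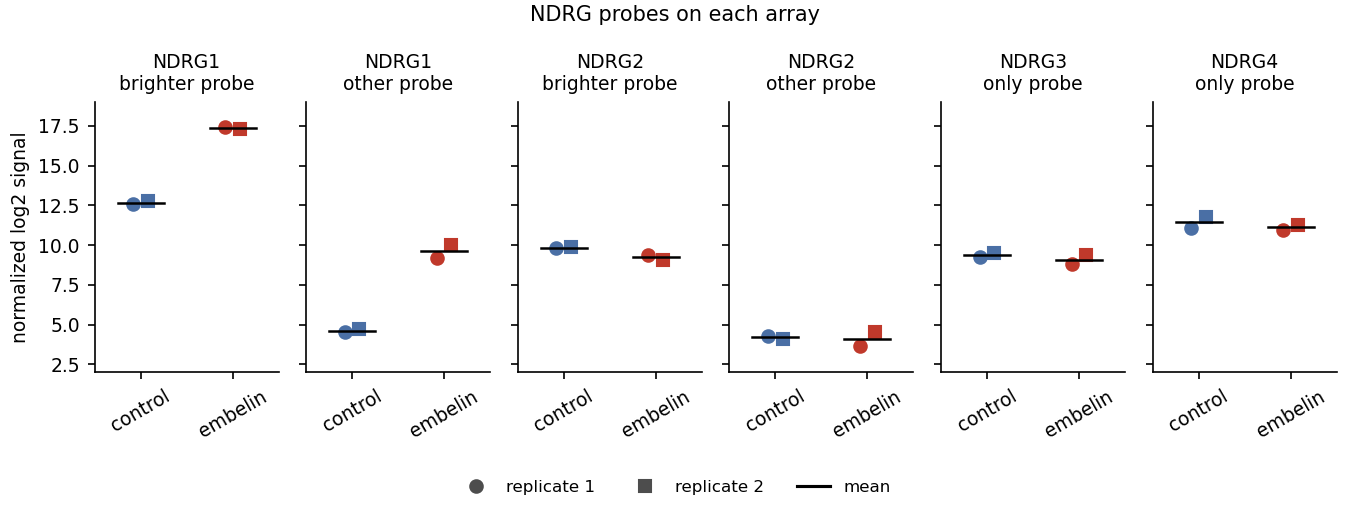
Normalized log2 signal (vertical axis) of each NDRG probe on the 2 control arrays (blue) and the 2 embelin arrays (red), with circles for replicate 1, squares for replicate 2 and a line at each group mean. Both NDRG1 probes lie 4.69 and 5.01 higher in embelin treated cells, the brighter NDRG2 probe lies 0.61 lower, and the groups overlap in the other 3 panels. Heights are not compared between panels, since probes differ in binding strength.

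NDRG2 is expressed in many epithelia and is often lost in tumours. At its brighter probe the normalized log2 signal was 9.80 and 9.89 in control cells and 9.40 and 9.06 in embelin treated cells. The means were 9.84 ± 0.066 and 9.23 ± 0.24 (SD, n = 2 each), a difference of -0.61, or 1.53-fold lower in embelin treated cells. The groups did not overlap, with a gap of 0.40, an order that 28.3% of probes shared.

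The other NDRG2 probe read 4.26 and 4.12 in control cells and 3.66 and 4.55 in embelin treated cells. It was well above background on 1 of 2 arrays in each group and so did not enter the comparison over all probes. Its difference was -0.08, with 1 embelin array below and 1 above both control arrays. NDRG2 thus rests on its brighter probe.

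NDRG3, whose protein is known to be kept low by oxygen-dependent degradation, gave 9.28 and 9.49 in control cells and 8.81 and 9.35 in embelin treated cells. The means were 9.39 ± 0.148 and 9.08 ± 0.386 (SD, n = 2 each), a difference of -0.31 or 1.24-fold lower. The second embelin array lay between the control arrays, so that the groups overlapped. The difference ranged from -0.69 to 0.07 over the 4 pairings of an embelin with a control array.

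NDRG4 gave 11.11 and 11.78 in control cells and 10.95 and 11.29 in embelin treated cells. The means were 11.44 ± 0.477 and 11.12 ± 0.238 (SD, n = 2 each), a difference of -0.33 or 1.25-fold lower. Here too the groups overlapped, and the control arrays differed by more than the group means did. The difference ranged from -0.83 to 0.18 over the 4 pairings, and was 0.01 when the second control array was left out.

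Of the 6 member probes, 5 passed the filter on dim probes, and the NDRG2 other probe did not. The other NDRG1 probe passed it through its embelin arrays alone. The median log2 difference over all probes compared was -0.04, so that the small negative differences of NDRG3 and NDRG4 stand beside a slightly negative centre. Of the 25631 probes with a value on every array, 12.8% had a lower value than the brighter NDRG2 probe, 27% than NDRG3 and 25.9% than NDRG4. Within the family, NDRG1 came first in the order of the differences. NDRG2, NDRG3 and NDRG4 could not be put in order, since the array pairings of NDRG2, from -0.83 to -0.40, overlapped those of NDRG3 and NDRG4.

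**Figure D2:**
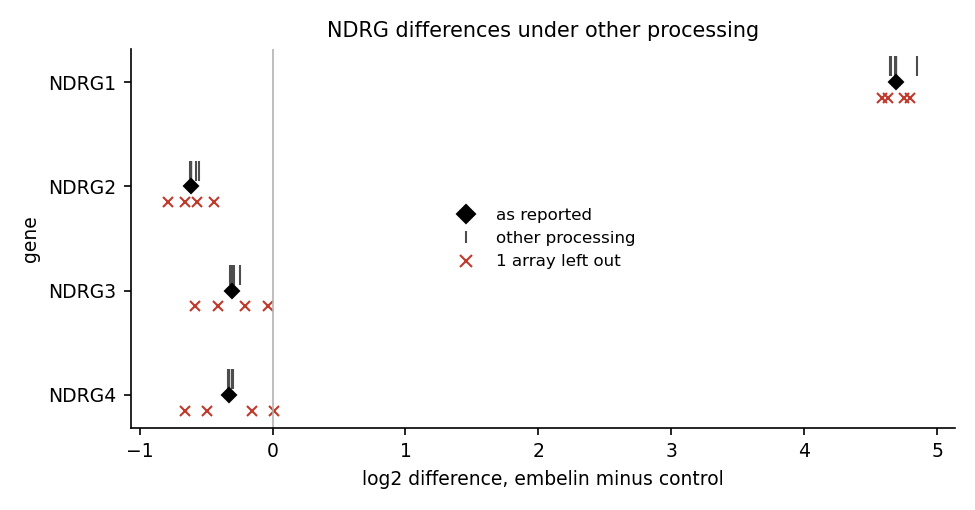
Log2 difference, embelin minus control (horizontal axis), of the probe that stands for each NDRG gene (vertical axis), as reported (diamonds), under other processing (bars) and with 1 array left out (crosses). NDRG1 stayed between 4.59 and 4.85 and NDRG2 between -0.78 and -0.44, while NDRG3 came to -0.04 at the highest and NDRG4 to 0.01. Bars for the replicate block, slide position and the other filters on dim probes repeat the reported value.

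Likeness of pattern was measured as the distance between profiles, each centred on its own mean over the 4 arrays, with 0 for identical profiles. The other NDRG1 probe lay at 0.74 from the brighter one, with 12 of 12856 genes nearer. NDRG3, NDRG4 and NDRG2 lay at 5.02, 5.04 and 5.31. Between 9665 and 11295 of the 12856 genes were nearer than these members. The distance mostly restates the group difference for which NDRG1 was chosen, and is given as a description.

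The 5 genes with the nearest profile to the brighter NDRG1 probe were MMP10, CEMIP, DRAXIN, ARID5A and DDIT3. They are the nearest by construction, and the likeness is over 4 arrays only. For MMP10, CEMIP and DRAXIN the distance rests on control values that were not well above background, so that their place in the order is not settled. MMP10 (stromelysin-2, a matrix metalloproteinase) read 3.26 and 3.61 in control and 8.25 and 8.02 in embelin treated cells. Neither control array had it well above background, and the embelin mean stood 9.82-fold above a reference level. The same held for CEMIP (a hyaluronan-degrading protein), at 12.9-fold, and for DRAXIN (a secreted axon guidance protein), at 9.16-fold. These folds set the embelin mean against the lowest signal well above background on each control array, or the probe's own signal where that was higher. A probe could miss that mark at a higher signal, so these folds are not strict minima.

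ARID5A, an RNA-binding protein that stabilises inflammatory transcripts, was well above background on all arrays, at 7.38 and 7.34 in control and 11.68 and 11.80 in embelin treated cells, a difference of 4.38. DDIT3, which encodes the stress transcription factor CHOP, read 7.21 and 7.28 in control and 11.55 and 11.42 in embelin treated cells, a difference of 4.24. The 5 genes were chosen for this pattern, so that no test is given for them.

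**Figure D3:**
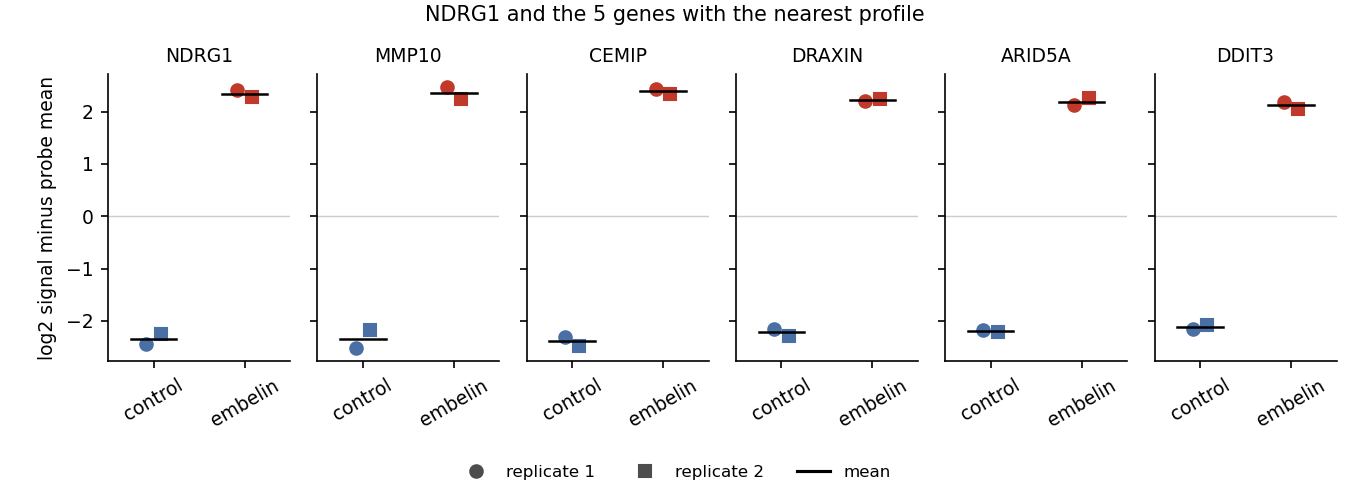
Log2 signal minus the probe's mean over the 4 arrays (vertical axis) for the brighter NDRG1 probe and the 5 genes with the nearest profile, with control arrays in blue, embelin arrays in red, circles for replicate 1, squares for replicate 2 and lines at group means. ARID5A and DDIT3 sit 4.38 and 4.24 higher in embelin treated cells. The control points of MMP10, CEMIP and DRAXIN were not well above background, so that their drawn heights above control are not settled.

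NDRG1 belongs to the transcripts known to rise in hypoxia, and 20 other such genes were read beside it. All 20 passed the filter, 12 of them rose with embelin (limma, Benjamini-Hochberg adjusted p under 0.05) and none fell, where 0.83% of all probes were called higher and 0.249% lower. An unadjusted p under 0.05 was reached by 18 of the 20, and by 17.9% of all probes. Here and at the lists below, the shares count every probe that passed the filter and not 1 per gene. In a limma fit of the brightest probe of each gene, 221 of 17668 were called higher and 98 lower, and 3448 had an unadjusted p under 0.05. The median log2 difference of the 20 genes was 2.01, against -0.04 over all probes, and 17 were at least 2-fold higher. The list was drawn up with earlier results of these arrays known, and is not independent evidence of its direction.

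The largest of these rises was that of ANGPTL4, a secreted inhibitor of lipoprotein lipase. It read 12.65 and 12.47 in control and 17.84 and 17.86 in embelin treated cells, a difference of 5.29 ± 0.183 (SE), which is close in size to that of NDRG1. ANKRD37, an ankyrin repeat protein and known HIF1 target, rose by 4.10 ± 0.205 (SE). Among glycolytic regulators, PFKFB4 rose by 3.64 and PFKFB3 by 1.96, and PDK1, which restrains pyruvate entry to the mitochondrion, rose by 2.78. The angiogenic factor VEGFA rose by 3.63, the vasodilator peptide ADM by 2.63 and the carbonic anhydrase CA9 by 3.44.

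The oxygen-sensing hydroxylase EGLN3 rose by 2.73 and the histone demethylase KDM3A by 2.40. BNIP3 and BNIP3L, receptors for the removal of mitochondria, rose by 1.80 and 2.07. The adjusted p of the 12 genes lay between 0.0255 and 0.0465. NDRG1 was further from its control level than each of these genes except ANGPTL4. All 12 calls, and the call of EGR1 below, were lost when any 1 array was left out, with the replicate number as a block, with slide position as a covariate, without the filter on dim probes and in the methods' t-test after adjustment. With 1 array left out, a group of 1 sample was assumed to vary like the other group. In those fits the difference lay between 5.20 and 5.38 for ANGPTL4 and between 2.61 and 2.65 for ADM.

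The remaining 8 of the list were not called. DDIT4, an inhibitor of mTORC1, differed by 1.75 (adjusted p = 0.0554 in limma) and the glucose transporter SLC2A1 by 1.83 (adjusted p = 0.0504 in limma). P4HA1 differed by 1.43, with 1 embelin value dropped as a scanner outlier and that group left with 1 array. The glycolytic genes ENO1, LDHA and PGK1 differed by 0.07, 0.39 and 0.73, and EGLN1 and VLDLR by 1.17 each. The 3 other probes of PGK1 ranged from 0.685 to 1.48, the 2 of LDHA from 0.16 to 0.56, and the 1 of ENO1 gave -0.06.

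**Figure D4:**
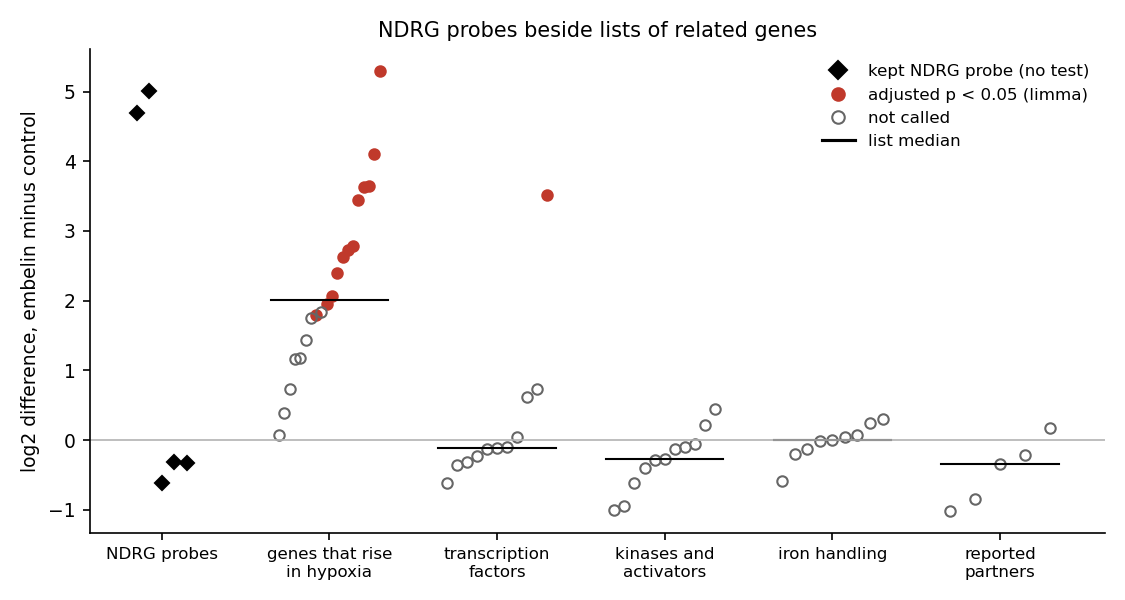
Log2 difference, embelin minus control (vertical axis), of the 5 NDRG probes that passed the filter (diamonds, no test) and of the genes of each list, with filled circles for genes at an adjusted p under 0.05 in limma, open circles for the others and lines at list medians. The 2 NDRG1 probes, at 4.69 and 5.01, lie in the upper range of the 20 hypoxia genes, whose median is 2.01. The probe at 5.01 passed the filter through its embelin arrays alone and came to 3.18 with normexp. The medians of the other 4 lists lie between -0.35 and 0.01.

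Of 11 transcription factors known to act on NDRG genes, all passed the filter, with a median difference of -0.11. In limma, 1 was called higher and none lower, where 0.83% of all probes were called higher and 0.249% lower. An unadjusted p under 0.05 was reached by 4 of the 11, and by 17.9% of all probes. The one called was EGR1, a zinc finger factor of the immediate early response that is reported to act on the NDRG1 promoter. It read 6.09 and 5.98 in control and 9.79 and 9.30 in embelin treated cells, a difference of 3.51 ± 0.245 (SE, adjusted p = 0.0285 in limma), with only 1 control array well above background. EGR1 passed the filter through its embelin arrays alone, and its difference was 2.60 with normexp. By the size of its difference EPAS1, which encodes HIF-2 alpha, came next with 0.73 (adjusted p = 0.153 in limma), from 14.13 and 14.08 to 14.79 and 14.88.

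HIF1A, whose product is controlled mainly at the protein level, read 12.54 and 12.58 in control and 11.92 and 11.97 in embelin treated cells, a difference of -0.61 that was not called (adjusted p = 0.193 in limma). The repressors MYC and MYCN differed by -0.31 and -0.23 and were not called (adjusted p = 0.645 and 0.598 in limma). The control arrays of MYC, at 13.82 and 13.24, enclosed 1 of its embelin arrays, at 13.04 and 13.40. HIF1A, MYC and MYCN were named after their values were seen.

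Of 11 genes for the kinases that act on NDRG1 and their activators, all passed the filter and none was called (limma), with a median of -0.27 and 2 at an unadjusted p under 0.05, which 17.9% of all probes reached. MAPKAP1, a subunit of mTORC2, had the largest difference, -0.998 (adjusted p = 0.219 in limma), and its 3 other probes ranged from -1.90 to -0.14. SGK1, the kinase that primes NDRG1 for GSK3, read 10.30 and 10.21 in control and 9.09 and 9.53 in embelin treated cells, a difference of -0.94 (adjusted p = 0.154 in limma). Phosphorylation itself was not measured by the arrays.

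Of 10 iron handling genes, 9 passed the filter and none was called (limma), with a median of 0.01 and 0 at an unadjusted p under 0.05, against 17.9% of all probes. The largest differences among the 9 were -0.58 for the iron importer SLC11A2 (adjusted p = 0.364 in limma) and 0.30 for the transferrin receptor TFRC (adjusted p = 0.579 in limma). TFRC read 14.92 and 14.53 in control and 14.89 and 15.15 in embelin treated cells, so that its groups overlapped. The iron exporter SLC40A1 did not pass, since it was well above background on 1 control array and on neither embelin array. It read 6.36 and 5.81 in control and 3.93 and 2.68 in embelin treated cells, too dim for a fold to be given. SLC40A1 was named after its values were seen.

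Of 5 reported NDRG1 partners in adhesion and trafficking, none was called (limma), with a median of -0.35 and 2 at an unadjusted p under 0.05, against 17.9% of all probes. The Wnt co-receptor LRP6 differed by -1.02 (adjusted p = 0.207 in limma), from 8.87 and 8.15 to 7.45 and 7.53. The recycling GTPase RAB4A differed by -0.84 (adjusted p = 0.156 in limma), and its 2 other probes ranged from -0.83 to 0.08. Without the first control array the difference of LRP6 was -0.65.

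Promoter sequence, mostly just before a start site, was at hand in RefSeq (GRCh38.p14) for 5 starts of NDRG2 and 4 of NDRG4, and for no start of NDRG1 or NDRG3. The letters ACGTG, a form of the core of a hypoxia response element, were searched on both strands. They stood in none of these 9 windows, against 21.4% of 35116 windows of that length. Other forms of the core were not searched. The E-box CACGTG contains ACGTG and so could not stand in these windows either, and 7.3% of all windows held it. These counts say only that the letters are not in these windows.

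The arrays carried 26146 probes that passed the filter on dim probes and 22752 passed it on every array. The first control and the second embelin array had 66.7% and 66.4% of probes well above background, and the second control and the first embelin array 50.3% and 51.2%, a split that crosses the groups. All 11 markers of A549 cells were well above background on every array and none was called. All 11 were nonetheless lower with embelin, with a median difference of -0.14 and KRT8 at -0.56, and their summed scaled intensities were 948433 and 988772 in control and 844480 and 853006 in embelin treated cells. The part of this shift in the NDRG values was not tested. Of 10 markers of other cell types, 1 (CD14) was well above background on all 4 arrays and 2 on none. The filter was passed by 3 of the 10. Their summed scaled intensities were 885 and 1009 in control and 1452 and 679 in embelin treated cells. CD14 made up 673 and 819 of these in control and 535 and 446 in embelin treated cells. On the first embelin array COL3A1 read 464 and PTPRC 191. In these bulk samples a change in RNA per cell and a change in the share of cells that express a gene cannot be told apart.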

How the data were processed

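RNA of 4 A549 samples was labelled with Cy3 and hybridized to 1 array each of 1 custom Agilent slide. The authors deposited scanner files from Feature Extraction 10.7.3.1 (the headers give the version), whose intensity values were background-subtracted and detrended but not normalized between arrays. Deposited flags for outlier, saturated and well above background spots were used. A deposited table of probe intensities differed by more than 0.001 log2 at 100 to 122 probes per array and served as an alternative.

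Intensities were scaled to a 75th percentile of 675, outlier spots were left out, spots of a probe were averaged, and values were floored at 1 before log2. A probe was kept if both samples of either group had it well above background. Embelin was compared with control in limma 3.58.1 (R 4.3.3, lmFit and eBayes, no covariate), with Benjamini-Hochberg adjustment over 26145 probes. Precision is limited by the number of arrays, and the median SD was 0.228 in log2. Tables and figures were made in Python 3.11.15 with pandas 2.3.3 and matplotlib 3.10.9. The fit was tested on simulated data. Each list gene stood as its brightest kept probe. Genes named were the members at every probe, called list genes or the 2 with the largest difference in a list with fewer than 2 calls, and the 5 genes nearest to NDRG1; other list genes were named after their values were seen. The members and lists were chosen with earlier results of these data known. Of 50238 probes, 28595 were named by accession, 2998 by current symbol and 1176 by an older symbol in a RefSeq table (GRCh38.p14), and 17469 kept the name in the files. Alternatives were normexp, quantile normalization, the deposited table, other filters and probe rules, a replicate block, slide position, the methods' t-test, a trended robust fit and leaving out each array. Genome coordinates were not used, since the array was designed on another build. Where the probes lie in the transcripts is not given in the sources used here.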

Additional observations from a re-analysis of the deposited data

How the results depend on the processing

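Over the 12 alternatives run for them, the 4 NDRG genes kept their direction, except NDRG4, which came to 0.01 without the second control array. Several of these alternatives are no check on direction, since a plain difference of group means was taken in each. The replicate block, slide position and the other filters on dim probes repeated the reported values. The mean of kept probes did so for NDRG2, NDRG3 and NDRG4, which had only 1 kept probe each. NDRG1 was 4.85 as the mean of its 2 probes, and its log2 difference ranged from 4.59 to 4.79 over the fits that each left out 1 array. Those ranges were -0.78 to -0.44 for NDRG2, -0.58 to -0.04 for NDRG3 and -0.66 to 0.01 for NDRG4. With normexp the other NDRG1 probe came to 3.18 and EGR1 to 2.60, and the dim NDRG2 probe gave -0.77 with quantile normalization and -0.53 to 0.36 with 1 array left out. The numbers of calls were less stable. Against 282 probes and 13 list genes called, normexp gave 820 and 16, quantile normalization 194 and 11, the probe values as deposited 158 and 8, a filter for all 4 arrays 768 and 15, and the trended robust fit 1296 and 20. No filter on dim probes, slide position as a covariate, the methods' t-test after adjustment and each left-out array (0 to 0) gave 0 probes and 0 list genes, with 2944, 4042, 3697 and 2876 to 4205 probes at an unadjusted p under 0.05, against 4678. The cause was not tested. Of the 13 list genes called, 2 lost the call with quantile normalization and 5 with the deposited values, and EPAS1 gained one in the trended robust fit. With the replicate number as a block (replicate block), 0 probes and 0 list genes were called and 5282 probes had an unadjusted p under 0.05. The labels do not say what a number shares, so the numbers were not taken as pairs. The deviations of same-numbered arrays correlated at 0.21 over 25631 probes. With only 2 numbers, that value cannot decide whether same-numbered arrays share an effect.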
